A study of Mus musculus with 12 samples.

Results

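The genes described here encode 10 proteins of the tectorial membrane and the cochlear extracellular matrix, out of 55416 genes counted. They were chosen by name: Tecta, Tectb, Otog, Otogl, Otoa, Epyc, Col2a1, Col9a1, Col9a3 and Tnc. The rule used no measured value, although earlier results of these data were known when the genes were chosen. In GENCODE vM39 on GRCm39, Tecta lies at chr9:42240915-42311225, Tectb at chr19:55169165-55184745, Otog at chr7:45890411-45960858, Otogl at chr10:107596392-107747995, Otoa at chr7:120680873-120762695, Epyc at chr10:97479853-97518316, Col2a1 at chr15:97873483-97902689, Col9a1 at chr1:24216691-24291765, Col9a3 at chr2:180239583-180264063 and Tnc at chr4:63878014-63965443. They were followed across 12 bulk RNA-seq libraries of mouse cochleae at postnatal day 0 (P0), the day of birth. Inner hair cells (IHCs) and outer hair cells (OHCs) each gave 6 pooled samples. The cells were sorted by flow cytometry. IHCs were sorted for GFP from Atoh1-GFP, a reporter of hair cells, and OHCs for that GFP together with TdTomato from the R26-TdTomato allele, switched on by the Cre of Insm1-GFP-Cre, whose gene marks developing OHCs. The labels call both groups WT, although the sort rests on these reporter alleles. The labels do not say which litters or animals each RNA pool came from, so p-values measure the spread between these pools, which may be partly technical. The pools hold whatever passed the gate, and a bulk level does not distinguish fewer cells of a type from less RNA per cell.

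The tectorial membrane is a gel of collagen fibrils in a matrix of non-collagenous glycoproteins, which overlies the hair bundles and couples sound-evoked motion to them. Its tectorins and otogelins are secreted mainly by supporting cells and the cells of the greater epithelial ridge, the epithelium on the medial side of the IHCs, before hearing begins. Type II and type IX collagens form its fibrils, as they do in cartilage, and tenascin-C is a matrix glycoprotein of developing tissues.

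The libraries held 31490204 to 44017309 counts on genes in IHCs and 29564827 to 39121988 in OHCs. Ribosomal RNA took 21.5% to 56.9% of the gene counts in IHCs and 23.4% to 36.4% in OHCs, with IHC replicate 1 the highest, and in OHC replicate 2 33.3% of all lines fell on no annotated feature. Levels are given as CPM, counts scaled to a common library size after normalization by TMM, edgeR's trimmed mean of M-values. Hair cell markers were high in every library: the summed level of 8 markers was 5971 to 9339 CPM in IHCs and 4527 to 5876 CPM in OHCs. Of the 8, Gfi1, Espn, Otof and Pvalb were IHC-enriched and 0 OHC-enriched. The 10 genes took 0.201% to 0.606% of the gene counts in IHCs and 0.263% to 0.342% in OHCs, and Tnc alone made up 58.5% to 91.7% of these.

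Of the 10 genes, 9 passed the filter on low counts, and Epyc did not. The edgeR quasi-likelihood test, with Benjamini-Hochberg adjustment over 13269 genes and a threshold of 0.05, called 2 of the 9 IHC-enriched, Tecta and Otog, and 0 OHC-enriched. At the same threshold 6.26% of all tested genes were called, 3.81% as IHC-enriched and 2.44% as OHC-enriched. The log2 fold change, OHC minus IHC throughout, was below 0 for 8 of the 9, with a median of -0.80, while over all tested genes it was below 0 for 51.8%, with a median of -0.036. These counts describe the chosen genes and carry no test of the list.

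Tecta, which encodes alpha-tectorin, the main non-collagenous protein of the membrane, was the most strongly IHC-enriched of the 10. Its level was between 576 and 1086 CPM in IHCs, with a median of 661 CPM, and between 52.2 and 403 CPM in OHCs, with a median of 229 CPM. All 6 IHC libraries lay above all 6 OHC libraries, a separation in this direction found for 2.37% of the tested genes, and 0 members separated in the other direction, found for 2.22% (4.6% either way). IHC replicates 2 and 5 were the highest, OHC replicate 3 was the highest of the OHC libraries and OHC replicate 2 the lowest. The IHC mean of 772 ± 222 CPM (SD, n = 6) stood against 219.7 ± 117 CPM for the OHCs (SD, n = 6). The log2 fold change was -1.81, with a standard error of 0.33 and a 95% interval of -2.51 to -1.12, which is 3.51-fold higher in IHCs (edgeR quasi-likelihood test, adjusted p = 0.00211). A two-sided exact permutation test of log2(CPM + 0.5) over the libraries gave an unadjusted p of 0.00216, the smallest that 6 against 6 can give.

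Tectb encodes beta-tectorin, the other tectorin. Its level was 70.7 to 555 CPM in IHCs, with a median of 177 CPM, and 72.7 to 274 CPM in OHCs, with a median of 185 CPM. The IHC libraries fell apart, replicates 5 and 6 lying at 553 and 555 CPM and replicates 1 to 4 between 70.7 and 228 CPM, and the OHC libraries lay within the IHC range. The log2 fold change of -0.62 (95% interval -1.58 to 0.35) did not pass the test (edgeR, adjusted p = 0.465), nor did the exact permutation test (p = 0.600). Tecta passed the threshold and Tectb did not, and the difference between these 2 fold changes was not tested.

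The sequences upstream of Tecta, Otog and Tectb are shown because the first 2 are the members called and the third is the partner of Tecta in the membrane. Each is the 250 bases before a transcript start in the RefSeq promoter table (built on GRCm38.p6), which held 7 of the 10 genes. These windows matched GRCm39 exactly and at a unique place, and in GENCODE vM39 they lie outside annotated exons. They are written 5′ to 3′ on the strand of the gene, and capitals mark matches to the motifs searched. Tecta is at chr9:42311244-42311493 on the minus strand, Otog at chr7:45890161-45890410 and Tectb at chr19:55168908-55169157, both on the plus strand.
Tecta: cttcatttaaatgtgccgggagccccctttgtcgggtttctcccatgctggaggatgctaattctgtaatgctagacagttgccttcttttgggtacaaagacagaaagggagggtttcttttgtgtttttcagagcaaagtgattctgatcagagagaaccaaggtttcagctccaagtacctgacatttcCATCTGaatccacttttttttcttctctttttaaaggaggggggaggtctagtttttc
Otog: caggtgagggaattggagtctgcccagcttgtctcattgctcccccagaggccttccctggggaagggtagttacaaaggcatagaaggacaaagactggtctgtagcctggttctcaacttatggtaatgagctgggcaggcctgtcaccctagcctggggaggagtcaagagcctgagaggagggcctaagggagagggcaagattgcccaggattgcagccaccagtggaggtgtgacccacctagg
Tectb: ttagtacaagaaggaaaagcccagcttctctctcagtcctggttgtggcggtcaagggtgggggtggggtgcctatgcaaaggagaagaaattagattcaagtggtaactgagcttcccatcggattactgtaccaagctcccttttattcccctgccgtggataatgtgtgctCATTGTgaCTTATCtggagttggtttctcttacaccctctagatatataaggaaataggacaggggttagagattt
The motifs searched, on both strands, were the TATA box TATAAA, the SOX motif ACAATG, the E-box CAGATG, the GATA motif GATAAG and the GC box GGGCGG, which do not contain each other. The Tecta window held CAGATG, read on the opposite strand as CATCTG, from 58 bases upstream of the start. Tecta has another start in the promoter table, whose window at chr9:42312987-42313236 is not printed. That window held the same motif, also on the opposite strand, from 41 bases upstream. The Tectb window held the SOX motif, printed here as CATTGT, from 76 bases upstream, and the GATA motif, printed as CTTATC, from 68 bases upstream, each on the opposite strand. The Otog window held no match to the letters searched. Among 32544 promoters of this length, 14.4% held CAGATG, 10.5% the SOX motif, 6.42% the GATA motif, 12.3% the TATA box and 32.96% the GC box, so that matches of these letters are common and describe the sequence only.

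Otog encodes otogelin, a large secreted glycoprotein of the acellular membranes of the inner ear. Its level was 52.2 to 320.4 CPM in IHCs, with a median of 156 CPM, and 12.9 to 95.5 CPM in OHCs, with a median of 50.1 CPM. The groups overlapped, since IHC replicates 1 and 4 lay within the OHC range, and the other IHC libraries lay above it. For Otog the fold change on the log2 scale was -1.61 (standard error 0.45, 95% interval -2.55 to -0.67) and was 3.06-fold higher in IHCs (edgeR, adjusted p = 0.0364), and the exact permutation test gave an unadjusted p of 0.0216. The call was lost when IHC replicate 2, 5 or 6 or OHC replicate 1, 2, 4 or 5 was left out, with an adjusted p of up to 0.0940, while the log2 fold change stayed between -1.84 and -1.33 over the 12 leave-one-out fits. Otogl, which encodes the related protein otogelin-like, was at 10.6 to 35.4 CPM in IHCs (median 24.8 CPM) and 4.48 to 34.3 CPM in OHCs (median 20.7 CPM). The groups overlapped over nearly their whole range, with a log2 fold change of -0.13 (95% interval -1.12 to 0.85, edgeR, adjusted p = 0.900).

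Otoa encodes otoancorin, a protein that anchors the membrane to the surface of non-sensory cells. It was the only tested member with a fold change above 0. Its level was 1.69 to 16.6 CPM in IHCs (median 4.23 CPM) and 3.10 to 19.6 CPM in OHCs (median 9.22 CPM), and the groups overlapped. Its log2 fold change of 0.60 (95% interval -0.87 to 2.08) did not pass the test (edgeR, adjusted p = 0.661).

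**Figure D1:**
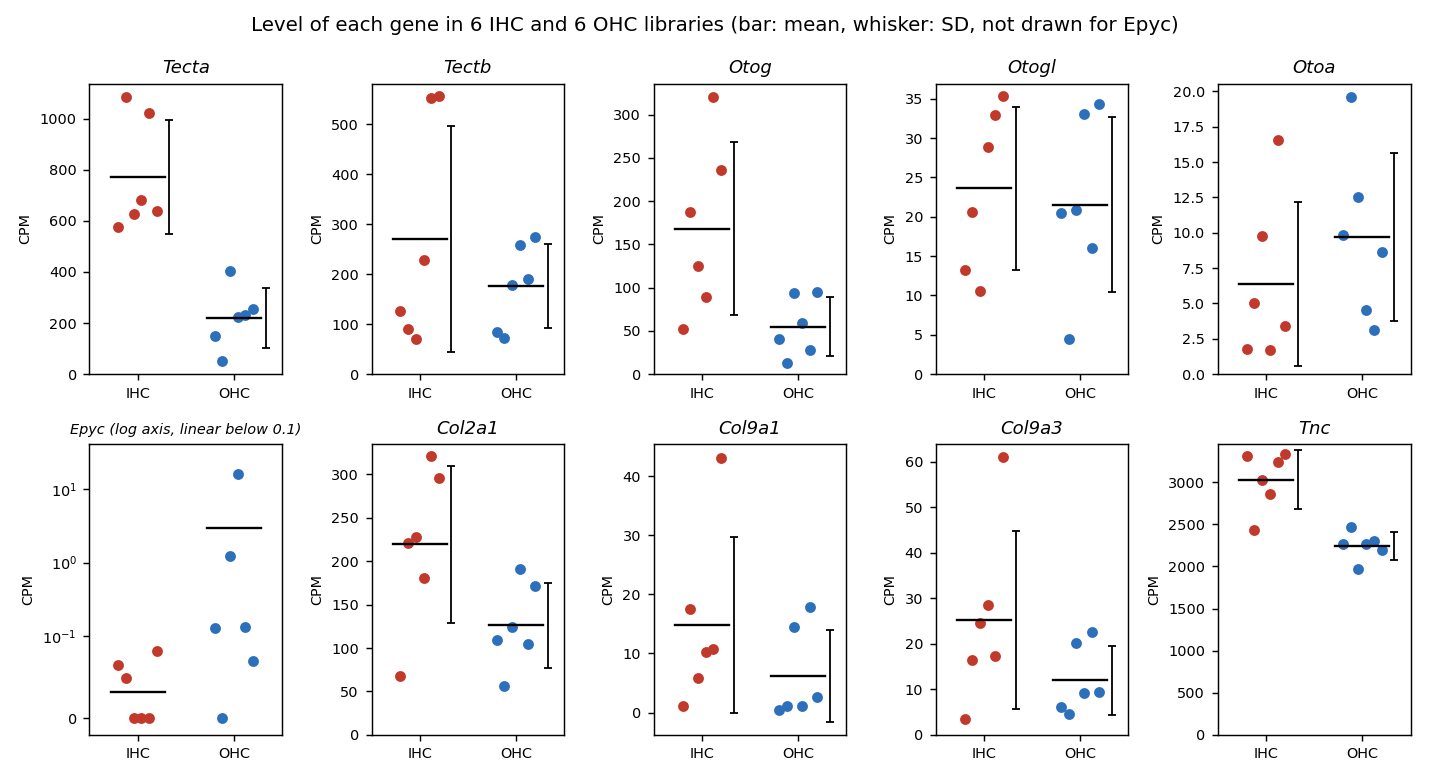
Level of each of the 10 genes in CPM (vertical axis, a separate scale for each gene, logarithmic with a linear part below 0.1 for Epyc), with a point for each of 6 IHC (red) and 6 OHC (blue) libraries, a bar at the mean and a whisker of 1 SD except for Epyc. Every IHC library lay above every OHC library for Tecta, the groups overlapped for the other tested genes, and Epyc reached 16.1 CPM in 1 OHC library.

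The collagen genes did not pass the test. Col2a1 encodes type II collagen, the main fibrillar collagen of the membrane and of cartilage. Its level was 68.3 to 321 CPM in IHCs (median 225 CPM) and 55.8 to 191 CPM in OHCs (median 117 CPM), and IHC replicate 1 was far below the other IHC libraries. The log2 fold change was -0.80 (95% interval -1.47 to -0.12, edgeR, adjusted p = 0.153). Without IHC replicate 1, the library with the most ribosomal RNA, it was -0.999 and passed (adjusted p = 0.0248). Col9a1 and Col9a3 encode chains of type IX collagen, which sits on the surface of type II fibrils. Col9a1 was at 1.18 to 43.1 CPM in IHCs (median 10.5 CPM) and 0.453 to 17.8 CPM in OHCs (median 1.85 CPM), so that its highest library was 36.6 times its lowest in IHCs and 39.3 times in OHCs. Its log2 fold change was -1.24 (95% interval -3.11 to 0.63, adjusted p = 0.447). Col9a3 was at 3.47 to 60.9 CPM in IHCs (median 20.9 CPM) and 4.60 to 22.7 CPM in OHCs (median 9.28 CPM), with a log2 fold change of -1.07 (95% interval -2.28 to 0.14, adjusted p = 0.292). Both groups overlapped for all 3 genes. The exons of Col9a3 share 11.8% of their bases with those of Tcfl5 on the opposite strand. Tcfl5 itself reached 13 counts.

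Epyc encodes epiphycan, a small leucine-rich proteoglycan of cartilage and of the membrane. It had 1, 2, 0, 0, 0 and 3 counts in IHC replicates 1 to 6 and 6, 0, 45, 553, 4 and 3 counts in OHC replicates 1 to 6. OHC replicate 4 stood alone at 16.1 CPM, and the next highest library, OHC replicate 3, was at 1.22 CPM. With every IHC library, at or below 3 counts, set to a floor of 3 counts, the IHC mean was 0.0995 CPM. The mean OHC level was 29.5 times this floor, and 3.12 times without OHC replicate 4. The latter value rests on OHC replicate 3, since OHC replicates 1, 2, 5 and 6 were at 0 to 0.133 CPM. An exact permutation test gave an unadjusted p of 0.0411. Epyc had an adjusted p only in the fit with no filter on low counts, which called it OHC-enriched. Its exons share 50.0% of their bases with Gm10754 on the opposite strand, which had 0 counts in every library.

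Tnc encodes tenascin-C. Its level was 2432 to 3335 CPM in IHCs, with a median of 3129.95 CPM, and 1964 to 2469.7 CPM in OHCs, with a median of 2266 CPM. Only IHC replicate 2 fell within the OHC range, below OHC replicate 2 and above the other OHC libraries. The log2 fold change was -0.43 (standard error 0.15, 95% interval -0.75 to -0.12), 1.35-fold higher in IHCs, and it missed the threshold in edgeR (adjusted p = 0.0911). The exact permutation test gave an unadjusted p of 0.00433, and the DESeq2 Wald test an adjusted p of 0.00783. The difference was small against that of Tecta and the spread was small too, with a coefficient of variation of 11.4% in IHCs and 7.38% in OHCs, the lowest of the 10 genes. Tnc shares 3.80% of its exonic bases with 8030451A03Rik on the opposite strand, at most 260 counts in any library against 50577 or more for Tnc.

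**Figure D2:**
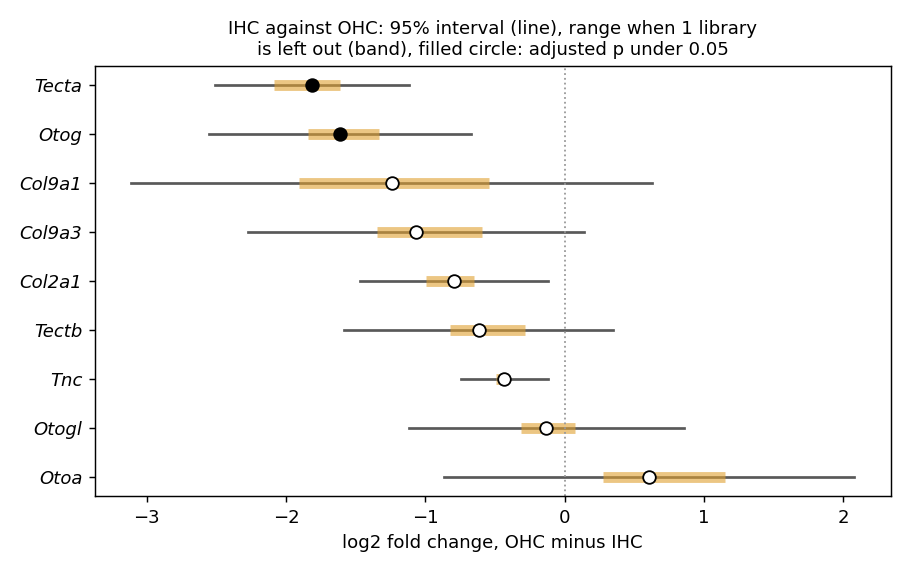
Log2 fold change, OHC minus IHC (horizontal axis), of the 9 tested genes, with the 95% interval as a line, the range over the 12 leave-one-out fits as a band, and a filled circle where the adjusted p was under 0.05. Tecta and Otog are filled, 8 of 9 points lie below 0, and the intervals of Col9a1 and Otoa are the widest.

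Per length, in TPM (transcripts scaled by exon length to a common total per library), the 10 genes spanned a wide range. In IHCs the order of the mean TPM was Tnc (949 ± 411, SD, n = 6), Tecta (259 ± 103), Tectb (198 ± 208), Col2a1 (64.4 ± 38.1), Otog (44.3 ± 31.8), Col9a3 (16.9 ± 17.6), Col9a1 (8.9997 ± 11.6), Otogl (7.27 ± 5.01), Otoa (1.89 ± 1.76) and Epyc (0.0290 ± 0.0444). In OHCs it was Tnc (859 ± 148), Tectb (135 ± 61.8), Tecta (90.8 ± 55.2), Col2a1 (41.2 ± 16.8), Otog (16.6 ± 10.8), Col9a3 (7.79 ± 4.60), Otogl (7.53 ± 3.96), Otoa (3.50 ± 2.24), Col9a1 (3.46 ± 4.25) and Epyc (3.37 ± 7.34). Tnc was clear of its neighbour in every library of both cell types and ranked 22nd of all genes by mean TPM in IHCs and 28th in OHCs. The ranges of the other neighbours overlapped, except for Otoa and Epyc in IHCs. Tecta stood above Tectb in 4 of the 6 IHC libraries, and Tectb above Tecta in 5 of the 6 OHC libraries. TPM depends on the ribosomal share: with ribosomal RNA genes left out, the mean TPM of Tecta was 671 in IHCs and 216 in OHCs, and that of Tnc 2401 and 2018.

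**Figure D3:**
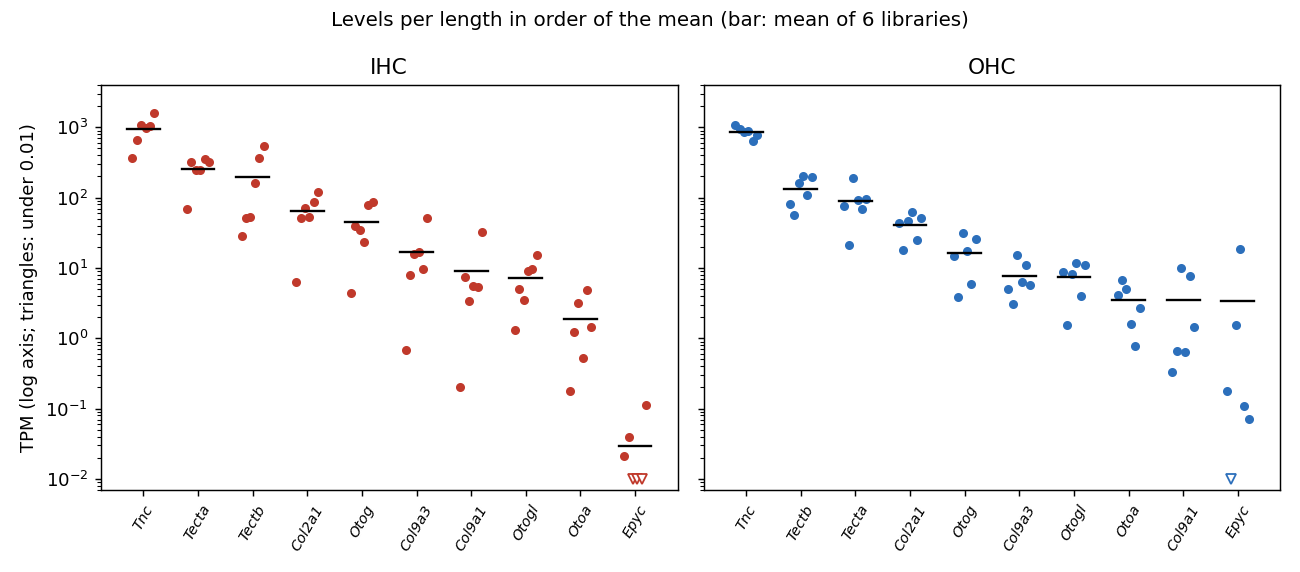
Level per length in TPM (vertical axis, logarithmic) of the 10 genes in order of their mean, IHC libraries on the left and OHC libraries on the right, with a point for each library, a bar at the mean of 6, and open triangles for values under 0.01. Tnc leads in both cell types, and Tecta and Tectb trade the next 2 places.

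The covariation of the 9 tested genes was examined within each cell type as the correlation of log2(CPM + 0.5) over 6 libraries, 36 pairs per cell type and 72 in all. In IHCs the median Pearson r was 0.51, with 31 of 36 pairs above 0, and in OHCs it was 0.28, with 21 of 36 above 0. The mean r over all pairs of 9826 genes in IHCs and 9827 genes in OHCs was 0.00016 and 0.00211, respectively. This mean is another measure than the median, and it does not show how far sets of 9 genes vary. After Benjamini-Hochberg adjustment over the 72 pairs, 0 passed by Pearson's r or Spearman's rho (exact permutation test, smallest adjusted p = 0.150), against 14 with an unadjusted Pearson p under 0.05. A single pair could not pass, since the smallest p for 6 libraries, 0.00139, becomes 0.1 over 72 pairs.
Otog and Col2a1 went together in both cell types, with r = 0.92 in IHCs (rho = 0.94, exact p = 0.00278 and 0.0167) and r = 0.86 in OHCs (rho = 0.83, exact p = 0.0250 and 0.0583). With the 2 libraries farthest from the median of Otog left out, r was 0.89 in IHCs and 0.46 in OHCs. Such an r covers few libraries and a narrower range, so a lower value does not show what the relation depends on. Otogl and Col2a1 had the highest r in OHCs, 0.98 (rho = 0.94, exact p = 0.00417 and 0.0167), which was 0.96 without the 2 farthest libraries. Tectb and Otogl had r = 0.88 in IHCs (rho = 0.94, exact p = 0.0319 and 0.0167) and 0.79 in OHCs (rho = 0.83, exact p = 0.0389 and 0.0583), and r was 0.77 and 0.91 without the 2 farthest libraries. Col9a1 and Col9a3, chains of the same collagen, had r = 0.88 in IHCs (rho = 0.49, exact p = 0.0444 and 0.356) and 0.94 in OHCs (rho = 0.83, exact p = 0.0139 and 0.0583). Without the 2 libraries farthest from the median of Col9a1 the values of r were -0.64 and 0.53. Between Tnc and Tecta r was -0.57 in IHCs (rho = -0.60, exact p = 0.217 and 0.242) and -0.86 in OHCs (rho = -0.77, exact p = 0.05 and 0.103). Without the 2 libraries farthest from the median of Tecta, r was -0.72 and -0.30. The libraries left out in OHCs were replicates 2 and 3. Tnc ran against Otog in OHCs, with r = -0.85 (rho = -0.89, exact p = 0.0361 and 0.0333), and -0.86 without the 2 farthest libraries. In OHCs, replicate 2 was the lowest library for Tecta, Tectb, Otog, Otogl, Col2a1 and Col9a3 and the highest for Tnc and Otoa, and it had the largest share of reads on no feature. In IHCs, replicate 1, with the most ribosomal RNA, was the lowest library for Tecta, Otog, Col2a1, Col9a1 and Col9a3.

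**Figure D4:**
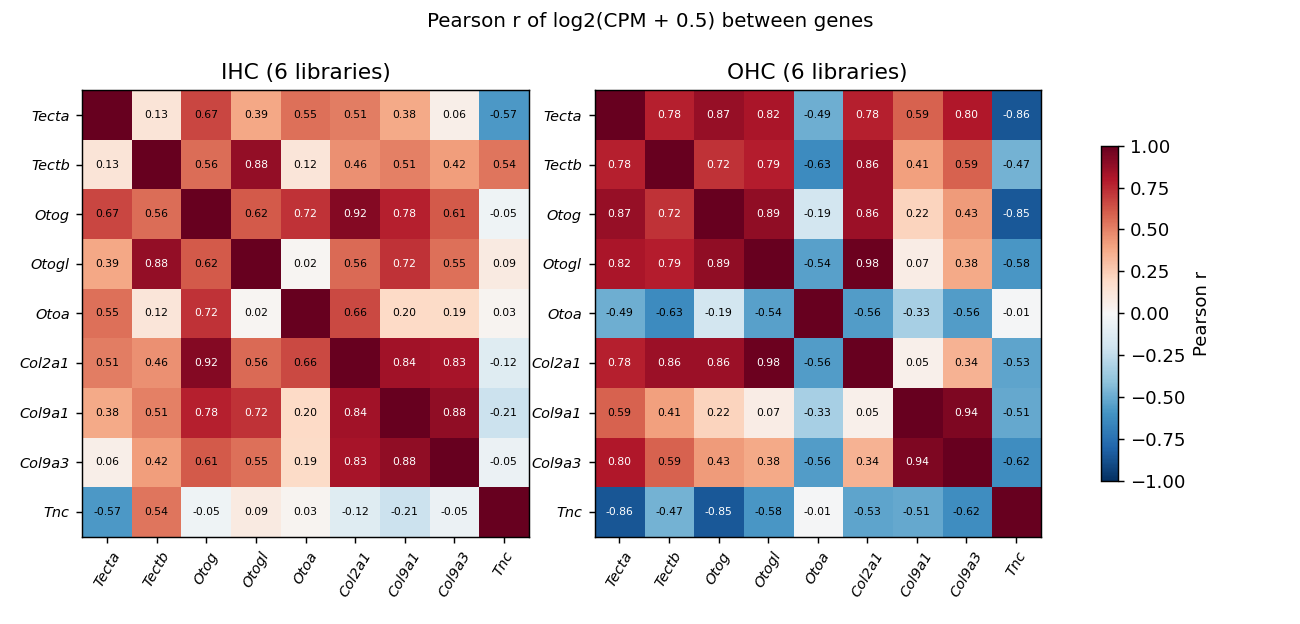
Pearson r of log2(CPM + 0.5) between the 9 tested genes over 6 IHC libraries (left) and 6 OHC libraries (right), on a color scale from -1 to 1. Most pairs are positive in IHCs, where the highest is Otog with Col2a1 (0.92), while in OHCs Tnc and Otoa run against most of the others.

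The genes whose pattern was most like that of each member were found over the 12 libraries, after removing each cell type's mean, among 9818 genes with a mean of at least 5 CPM. They are given as a description only. Sparc, a matrix glycoprotein, was nearest to Tecta (r = 0.96), followed by Igfbp3 and Pa2g4. Mettl27 was nearest to Tectb (r = 0.93), before Pi4kb and Snap25, and Dr1 to Otog (r = 0.90), before Tns1 and Jag1, a Notch ligand of supporting cells. Pgm5 was nearest to Otogl (r = 0.94), before Tmco3 and Zscan26, and E2f6 to Otoa (r = 0.93), before Asxl3 and Ttc9c. For the collagens, Sp1, Ssc5d and Slitrk6 were nearest to Col2a1 (r = 0.94 for Sp1), AB124611, Cr1l and Gpm6b to Col9a1 (r = 0.94 for AB124611), and Nkapd1, Stx7 and Gas1 to Col9a3 (r = 0.92 for Nkapd1). Nrxn3, Crcp and Ank3 were nearest to Tnc (r = 0.95 for Nrxn3). Each of these is picked as the highest of 9818 values.

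Other genes of the same matrices were described from fixed lists, also chosen with earlier results of these data known. Among 8 further tectorial and otolithic genes, 7 were tested and 2 called, in opposite directions. Otol1, which encodes the otolith collagen otolin-1, was IHC-enriched, at 0.850 to 33.1 CPM (median 8.31 CPM) in IHCs and at most 0.905 CPM in OHCs (log2 fold change -4.99, standard error 1.23, edgeR, adjusted p = 0.0184). Oc90, which encodes otoconin-90, was OHC-enriched, at most 1.36 CPM in IHCs and 0.421 to 69.0 CPM in OHCs (log2 fold change 5.96, standard error 1.44, adjusted p = 0.0161). Each overlapped between the groups, and each call was lost when a single library was left out, that of Otol1 without IHC replicate 6 (adjusted p = 0.0532) and that of Oc90 without OHC replicate 3 (adjusted p = 0.0671). Strc, which encodes stereocilin, was the highest of the list per length (55.6 TPM in IHCs and 64.5 TPM in OHCs) and did not pass (adjusted p = 0.688). It shares 9.75% of its exonic bases with Ckmt1 on the opposite strand. Ckmt1 reached 4522 counts and Strc 6973, and the effect of this overlap on the Strc level was not tested. Ceacam16, another protein of the membrane, had 0 counts in all 12 libraries, which allows up to 3 counts per library.

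Among the lecticans and tenascins, 3 of 8 were tested and Vcan alone was called. Vcan encodes versican, a large chondroitin sulfate proteoglycan. It was at 1.05 to 8.21 CPM in IHCs and 69.4 to 197 CPM in OHCs, with no overlap (log2 fold change 5.02, standard error 0.46, edgeR, adjusted p = 8.99e-07). Tnr, the other tenascin tested, had a log2 fold change of -0.90 (adjusted p = 0.559). Ncan, which encodes neurocan, was the highest of the list in IHCs per length (11.2 TPM) and did not pass. Of the small leucine-rich proteoglycans 3 of 10 were tested, of the other cochlear matrix genes 6 of 8 and of the fibrillar collagens 4 of 8, and 0 of these 13 passed in edgeR, with 1 at an unadjusted p under 0.05 among the fibrillar collagens, 1 among the proteoglycans and 0 among the other matrix genes. Over all genes, 2889 of the 13269 tested had an unadjusted p under 0.05 in edgeR. Without OHC replicate 1, 1 fibrillar collagen was called. The most abundant were Lum (10.8 TPM in IHCs), Sparc (220.4 TPM in IHCs and 229 TPM in OHCs) and Col3a1 (1.83 TPM in IHCs).

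Markers of other cell types were measured beside the members. Of 7 greater epithelial ridge markers, 5 were tested and Gjb2, a gap junction gene, was IHC-enriched without overlap (216 against 30.3 CPM, log2 fold change -2.83, standard error 0.55, edgeR, adjusted p = 0.00334). It alone was called, but all 5 had a log2 fold change below 0, with a median of -1.69. The summed level of the 7 was 121 to 523 CPM in IHCs and 32.2 to 102 CPM in OHCs, but Gjb2 alone made up 55.2% to 86.8% of it in IHCs. The other 6 markers summed to 42.2 to 125 CPM in IHCs and 18.1 to 79.4 CPM in OHCs, a sum added after seeing the data, and these ranges overlapped, with 2 of the 6 IHC libraries above every OHC library. The order of the libraries by the sum of all 7 markers was partly shared with Tecta and Otog. In IHCs, replicates 2 and 5 were the highest and replicates 1 and 3 the lowest for both the sum and Tecta. In OHCs, replicates 1 and 2 were the lowest for both the sum and Tecta, and replicate 6 was the highest for the sum and Otog. With Gjb2 left out, replicates 6 and 2 were the highest in IHCs, at 125 and 104 CPM, and replicate 5 was at 69.2 CPM. Replicates 1 and 3 were again the lowest in IHCs. In OHCs, the sum without Gjb2 was lowest in replicates 1 and 5 and highest in replicate 6. The relation of these sums to Tecta and Otog was not tested. Among IHCs, replicate 1 was lowest for the sum, Tecta and Otog, while the highest was replicate 5 for the sum and Otog, replicate 2 for Tecta and replicate 6 for the sum without Gjb2. Among OHCs, the sum was lowest in replicate 1, and Tecta and Otog were lowest in replicate 2. Of 10 supporting cell markers all were tested and Sox2 alone was called, IHC-enriched (71.6 against 26.8 CPM, adjusted p = 0.0142, with 59.9% of its exonic bases shared with the antisense Gm64654), and 3, 2 and 3 were called without IHC replicates 1, 2 and 6, respectively. The list did not move one way: 8 of the 10 had a log2 fold change below 0, while Fgfr3 was at 16.8 CPM in IHCs against 73.1 CPM in OHCs (log2 fold change 2.12, adjusted p = 0.0722) and Hes5 at 8.08 against 20.2 CPM (1.32, adjusted p = 0.285). Without IHC replicate 6, Fgfr3 was called OHC-enriched. Both were named after their values were seen. The summed level of the 10 was 186 to 458 CPM in IHCs and 143 to 333 CPM in OHCs. Endothelial markers moved the other way: 6 of 7 were OHC-enriched, and their sum was 0.302 to 5.08 CPM in IHCs and 15.4 to 199 CPM in OHCs. The part of these markers in the levels of Tecta and Otog was not tested. Chondrocyte markers summed to 56.8 to 166 CPM in IHCs and 22.8 to 94.6 CPM in OHCs, mostly Sox9, which supporting cells also express, and Matn3, Snorc and Ucma were at 0 counts. Neither Sox9 nor Cnmd, the 2 tested, was called, with Sox9 at an unadjusted p under 0.05. Mesenchyme, glia and macrophage lists had 0 genes called among 3, 4 and 1 tested (edgeR, 1 of the mesenchyme, 1 of the glia and 1 of the macrophage genes had an unadjusted p under 0.05), and 0 of the 6 erythroid genes passed the filter. As background, 2889 of all 13269 tested genes had an unadjusted p under 0.05 in edgeR. Without IHC replicate 3, 1 mesenchyme gene was called.

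**Figure D5:**
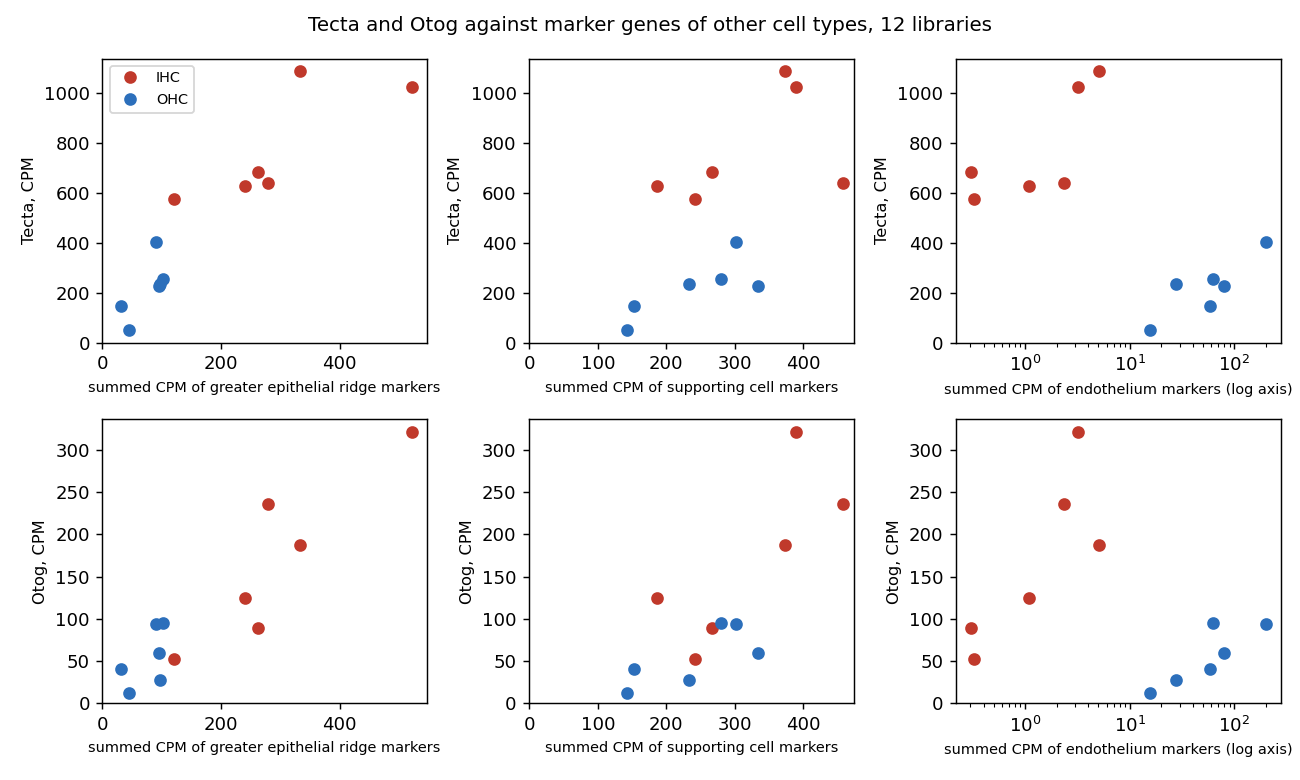
Level of Tecta (top) and Otog (bottom) in CPM against the summed CPM of greater epithelial ridge markers (left), supporting cell markers (middle) and endothelium markers (right, logarithmic axis), with a point for each of the 12 libraries (IHC red, OHC blue). IHC libraries lie to the right of OHC libraries for the ridge sum (121 to 523 against 32.2 to 102 CPM) and to the left for the endothelium markers. Without Gjb2 the ridge sums overlap (42.2 to 125 against 18.1 to 79.4 CPM).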

How the data were processed

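RNA-seq counts were analysed from 6 IHC and 6 OHC libraries, grouped by their labels. Per the labels, rRNA was depleted and cDNA was amplified from random primers, with reads of 100 bp. The authors deposited raw counts per gene, without normalization. Their methods name STAR in 2 passes and HTSeq (intersection-nonempty mode) on GRCm39 with GENCODE vM27, and the submitters' notes add Trimmomatic. Tool versions and the strand setting are not given in the sources used here, so reads from overlapping antisense genes may not be told apart.

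The 5 summary lines of each file were left out, as were genes failing filterByExpr (minimum count 10, minimum total count 15). edgeR 4.0.16 in R 4.3.3 gave TMM factors and glmQLFit and glmQLFTest results, tested on simulated data first. DESeq2 1.42.0 was an alternative, with the edgeR exact test, other filters and scalings, a replicate block and each library left out. TPM used exon unions of GENCODE vM39, whose identifiers cover 98.8% of genes and 99.967% of counts. Correlations and exact permutation tests were run in Python 3.11.15 with scipy 1.17.1. Reads carry no molecular identifiers, so limits set from counts cover counting error only.

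The members and lists were chosen with earlier results of these data known. The genes named include the 10 members, called or most abundant genes of the lists, and the 3 genes nearest to each tested member. Genes of the endothelium, mesenchyme, glia, macrophage and erythroid lists are not named.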

Additional observations from a re-analysis of the deposited data

Results flagged for a closer look

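In 29 groups of 6 libraries (the members, Vcan, Otol1, Oc90, Gjb2 and Sox2 in each cell type, leaving out groups at or under 3 counts), 3 held a library far from the other 5 by Dixon's criterion, which flags about 1 in 20 groups by chance. Epyc was at 16.1 CPM in OHC replicate 4, and the next library was at 1.22 CPM. Oc90 was at 69.0 CPM in OHC replicate 3, with the next at 22.2 CPM, and at 1.36 CPM in IHC replicate 3, with the next at 0.415 CPM.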

How the results depend on the processing

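Tecta was IHC-enriched in all 20 alternative fits, with log2 fold changes of -2.09 to -1.61. The number of members called IHC-enriched ranged from 1 to 3 with 1 library left out, against 2, the losses being Otog and the gain Col2a1, and with no filter on low counts 1 member, Epyc (log2 fold change 6.39, adjusted p = 0.0368), was called OHC-enriched. Otogl turned above 0, to 0.010, without IHC replicate 6 and to 0.072 without OHC replicate 2, and with 1 library left out it ranged from -0.32 to 0.072. With the 2 libraries of most ribosomal and most unannotated reads left out together, an alternative chosen after seeing the data, Col2a1 passed (adjusted p = 0.0423). Over all genes 506 were IHC-enriched and 324 OHC-enriched. DESeq2 called 1339 and 1590 of 16869, the fit with no filter 893 and 918 of 27488, and the edgeR exact test 517 OHC-enriched. IHC-enriched genes were thus 61.0% of the calls in the edgeR quasi-likelihood test, 45.7% in DESeq2 and 49.3% with no filter. With 1 library left out the counts were 369 to 551 and 225 to 402. The replicate block gave 512 and 391. Libraries with the same replicate number were not alike in their levels. Same-number correlations of deviations were -0.0354 to 0.0299, and 3 of 12 libraries correlated best with their own number. Whether they share animals is not known, since the labels do not say and these correlations cannot show it. The number of members with an exact p under 0.05 was 4 at each of the 3 pseudocounts. DESeq2 also called more genes of the lists, 5 tectorial and otolithic genes and 4 supporting cell markers. Mean TPM without ribosomal RNA genes was over 1.5 times the value with them for every member. The causes were not tested. Depth limits what can be said of Epyc and Ceacam16.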

Other observations

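Of the cartilage matrix genes that did not pass the filter, 5 are described here, chosen after their values were seen. Each had most of its counts in 1 or 2 libraries. Genes with many counts in few libraries fail the filter, so this pattern follows in part from it. Other matrix genes that failed it also peaked in 1 library of either cell type. Examples are Tnxb with 168 counts in IHC replicate 6 and Tnn with 131 counts in OHC replicate 6. Acan, which encodes aggrecan, had 556 counts in OHC replicate 4, the library with 553 counts of Epyc, at most 21 counts in the other OHC libraries and at most 1 in IHC libraries. Prelp, a small leucine-rich proteoglycan, had 65 counts in OHC replicate 4, 1 to 9 in the other OHC libraries and 0 in every IHC library. Matn1, which encodes matrilin-1, had 408 counts in OHC replicate 2 and at most 3 in any other library. Comp, which encodes cartilage oligomeric matrix protein, had 169 counts in OHC replicate 5, 55 in OHC replicate 6 and 0 in every IHC library. In IHCs, Chad, which encodes chondroadherin, had 90 counts in replicate 4 and at most 1 in any other library.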
